A study of Aspergillus niger with 24 samples.

Results

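Of the 11846 genes listed for Aspergillus niger, 50 were chosen. Their levels at day 1 were at least 4 times lower in both strains than on days 2, 3 and 4. The later levels of each gene lay within 3-fold of each other. Day 1 levels were low only relative to the later days, and reached a mean of 164 TPM in WT (NRRL3_00054). These genes were selected by their measured levels. A group mean is the mean TPM (an abundance scaled to gene length and to the library total) of the 3 libraries of a strain and day. The lowest of the 6 group means of days 2 to 4 had to be at least 10 TPM and at least 4 times the higher of both day 1 means. The highest of those 6 means had to stay below 3 times the lowest, and the mean over all 24 libraries had to be under 1000 TPM. All 50 genes also passed the filter used for testing (at least 1 TPM in at least 3 libraries), which 9558 genes passed. The contrast of day 1 with the later days chose the genes, so values and calls of their rise are given as a description and support nothing. Every group mean took part in the choice, so strain differences and day steps of these genes are also descriptions. The choice did not use their sign.

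Aspergillus niger is a filamentous fungus grown in industry for organic acids and secreted enzymes. On agar its hyphae first spread from spores and take up easily used sugars, and later the colony ages and forms aerial structures that carry black spores. Transcripts of a growing colony therefore come from hyphae of different ages. The deposited table gives NRRL3 gene IDs without names or products, and 0 of these IDs matched a reference table of 14404 genes. The 50 genes are therefore described by their IDs and values, with no roles, pathways or sequences.

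The data are 24 RNA sequencing libraries of hyphae in 8 groups of 3. The wild type (WT) is the strain CICC2629, and the other strain carries the same strain name with the genotype given as expressing TLL, a lipase, which is an enzyme that cleaves fats. Both were grown on potato dextrose agar, a medium of potato extract and glucose, at 28 °C and are labelled with days 1 to 4. The sources used here do not give the promoter of the TLL gene or the number of transformants behind the label, and no listed ID is named as TLL, so its transcript could not serve as a check of the labels. They also do not say if replicates were grown as separate cultures. The p-values therefore measure the spread between these libraries, which may be technical.

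Each library summed to about 1000000 TPM, and TPM keep no record of read number, so depth is unknown. In such bulk libraries, fewer cells of a kind and less RNA per cell cannot be told apart. The most abundant gene took 1.79% to 13.7% of a library, which lowers the TPM of all other genes in it. Replicates of days 2 to 4 correlated across genes at 0.983 or more. At day 1 the lowest correlation was 0.923 in WT, whose replicate 1 lay apart, and 0.920 in TLL, whose replicate 3 lay apart. These libraries of different strains correlated with each other at 0.972, and the day 1 strain difference and the difference of the rise rest on them in part. Both of these libraries also held the most TPM from the 50 genes in their groups, as given below. WT day 3 resembled TLL day 4 (mean r = 0.910) more than it resembled TLL day 3 (0.900), and WT day 4 resembled TLL day 3 (0.971) more than TLL day 4 (0.889). The choice of the 50 genes treats the 6 later groups alike, so it does not depend on the order of the labels of days 2 to 4. The results for single days, the steps between days and the change of the strain difference from day 3 to day 4 do depend on that order, and the day labels were used as given.

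Together the 50 genes went from under 0.13% to about 1% of all TPM after day 1. In WT their summed share was 0.0896% ± 0.0335 at day 1, 0.723% ± 0.174 at day 2, 0.901% ± 0.0125 at day 3 and 1.19% ± 0.0517 at day 4 (SD, n = 3 each). In TLL it was 0.0609% ± 0.0257 at day 1, 1.08% ± 0.126 at day 2, 1.29% ± 0.00729 at day 3 and 0.970% ± 0.0132 at day 4 (SD, n = 3 each). By the labels the share was thus highest at day 4 in WT and at day 3 in TLL, which of the 4 pairs of a WT and a TLL group of days 3 and 4 had the highest correlation across all genes. The rank of the genes within a library does not depend on scaling. The median gene of the 50 stood at the 25.6th to 37.1st percentile of the 9558 genes in the 6 day 1 libraries and at the 66.5th to 81.9th percentile in the 18 later libraries. In all 50 genes every later library lay above every day 1 library, which the 4-fold gap asked of the group means favours. The share of all genes with this order was not computed. The limma fit called all 50 higher after day 1 in each strain, where 30.5% of all genes tested were called higher in WT (55.0% either way) and 41.4% in TLL (63.9% either way). Since this contrast chose the genes, nothing is read from these counts.

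**Figure D1:**
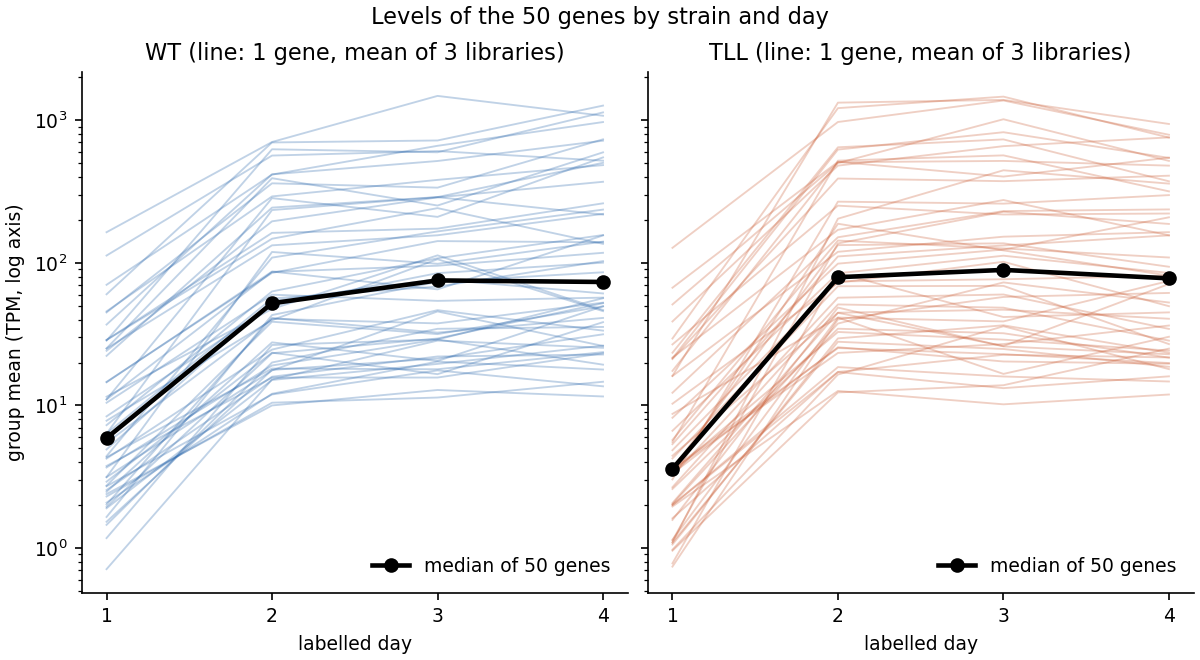
Group mean of each of the 50 genes (thin lines, mean of 3 libraries, TPM on a log axis) against the labelled day in WT (left) and TLL (right), with the median gene in black. The median goes from 5.90 to 52.1 TPM between days 1 and 2 in WT and from 3.59 to 79.3 TPM in TLL, and lies between 73.5 and 89.3 TPM on days 3 and 4.

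The 50 genes spanned a wide range of levels. Their mean over all libraries ran from 9.19 to 838 TPM with a median of 54.5 TPM, and 31 lay under 100 TPM. The ratio of the lowest later mean to the higher day 1 mean ran from 4.05 to 32.2 with a median of 6.27. It lay under 5 in 13 genes, between 5 and 10 in 20, and at 10 or more in 17, of which 5 reached 20. Within the later days the highest group mean was 1.28 to 2.91 times the lowest, with a median of 2.18.

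NRRL3_11436 had the largest ratio, 32.2. Its WT libraries held 10.4, 4.69 and 3.94 TPM at day 1, 303.78, 248.54 and 152.05 at day 2, 282.45, 276.27 and 308.51 at day 3, and 244.95, 188.75 and 221.3 at day 4. Its TLL libraries held 0.45, 0.66 and 2.16 TPM at day 1, 164.37, 233.68 and 214.65 at day 2, 412.85, 449.81 and 476.42 at day 3, and 326.15, 383.61 and 369.85 at day 4. The gene was thus near 1 TPM in TLL day 1 and stood above 150 TPM in all 18 later libraries, with the highest values in TLL day 3.

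NRRL3_03400 came next with a ratio of 31.4. Its WT libraries held 4, 3.1 and 2.33 TPM at day 1, and at the later days between 92.25 TPM (day 3, replicate 3) and 150.13 TPM (day 4, replicate 3). In TLL it was listed at 0.71, 0 and 2.67 TPM at day 1 and averaged 137 ± 14.3, 228 ± 13.3 and 188 ± 5.47 TPM on days 2, 3 and 4 (SD, n = 3 each). As in NRRL3_11436, all TLL day 3 libraries lay above all other libraries.

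The most abundant of the 50 was NRRL3_00054, with a ratio of 4.29. WT averaged 164 ± 62.0 TPM at day 1, 705 ± 151 at day 2, 1484 ± 47.0 at day 3 and 1077 ± 154 at day 4, and TLL 128 ± 31.0, 974 ± 20.2, 1378 ± 55.7 and 792 ± 21.6 TPM on the same days (SD, n = 3 each). Its level peaked at day 3 in both strains. Among genes outside the 50, NRRL3_02070 (r = 0.994) and NRRL3_02172 (r = 0.991) had the most similar profiles, by Pearson correlation of log2(TPM + 1) over the 8 group means. Both are far less abundant, at 8.03 and 1.02 TPM over all libraries. Correlation does not weigh the size of the rise. The ratio of the lowest later mean to the higher day 1 mean was 1.7 in NRRL3_02070 and 4.08 in NRRL3_02172.

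At the 4-fold limit, NRRL3_06628 (4.05) and NRRL3_11438 (4.06) lay just inside, and NRRL3_03187 (3.87) and NRRL3_00789 (3.78) just outside. At the limit on the spread of later means, NRRL3_02339 (2.91) and NRRL3_01451 (2.89) lay just inside, and NRRL3_01149 (3.04) and NRRL3_07973 (3.08) just outside. A later mean of at least 10 TPM and 4 times day 1 was found in 113 genes. Of these, 57 were kept out by the spread of their later means alone and 3 by their mean over all libraries alone. Another 51 genes met every condition but the minimum of 10 TPM. With the 10 TPM, 4-fold and 3-fold limits taken from the libraries of 1 strain alone, 105 genes passed in WT and 239 in TLL. The limit on the mean over all 24 libraries was kept in both counts.

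The replicates of a group differed in how high the 50 genes stood, most of all on the first days. At day 1 the summed TPM of the 50 genes was 1283, 714 and 692 in WT replicates 1, 2 and 3 and 468, 453 and 905 in TLL replicates 1, 2 and 3. WT replicate 1 was the highest of its group in 40 of the 50 genes, and in 35.9% of all genes tested. TLL replicate 3 was the highest of its group in 45 of the 50 and in 56.1% of all genes. At WT day 2 the sums were 8572, 7850 and 5259 TPM, and replicate 3 was the lowest of its group in 48 of the 50, against 53.0% of all genes. The median coefficient of variation of the 50 genes was 37.4% in WT day 1, 53.2% in TLL day 1 and 22.9% in WT day 2, where the median of all genes was 27.9%, 25.9% and 13.2%. From WT day 3 and TLL day 2 on it was 6.11% to 12.1%, below the median of all genes in each group. The median gene of the 50 ranked below the middle of all genes at day 1 and above it later. Spread was not compared at equal level. The cause of this spread was not tested. The rule uses group means, so it does not fix which replicate is high.

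**Figure D2:**
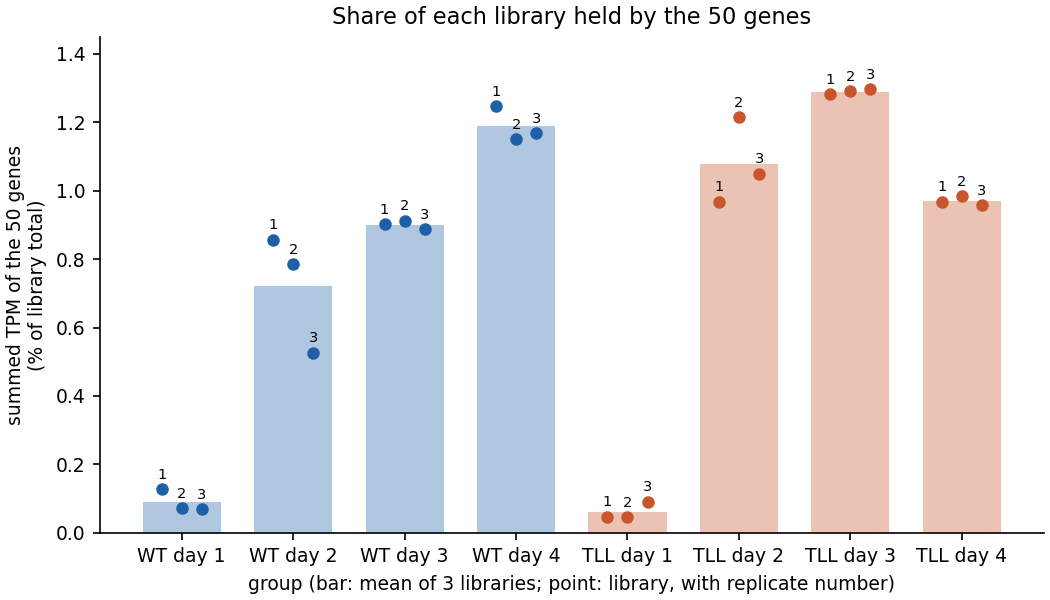
Summed TPM of the 50 genes as a percentage of each library's total, with each library as a point labelled by its replicate number and the mean of 3 libraries as a bar. The day 1 libraries lie between 0.0453% and 0.128%, and the later ones between 0.526% (WT day 2 replicate 3) and 1.30%.

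At day 2 the median gene of the 50 stood at 57.8% of its highest later mean in WT and at 90.7% in TLL. The median of all genes tested was 85.3% in WT and 95.7% in TLL. The median ratio to the strain's own day 1 mean was 7.90 at day 2, 10.1 at day 3 and 12.8 at day 4 in WT, and 16.5, 17.3 and 16.9 in TLL. In WT 33 of the 50 genes were highest at day 4, 15 at day 3 and 2 at day 2, where 32.8%, 33.7% and 33.5% of all genes were highest on these days among days 2 to 4. In TLL 14 were highest at day 4, 21 at day 3 and 15 at day 2, where the shares of all genes were 37.3%, 16.9% and 45.8%. WT day 2 was the lowest of the 6 later groups in 26 of the 50 genes and the highest in 0, and the shares of all genes were not computed. The WT day 2 means include replicate 3, the lowest of its group in 48 of the 50 genes, and were not recomputed here without it. These values are of group means, and the difference between the strains in them was not tested.

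**Figure D3:**
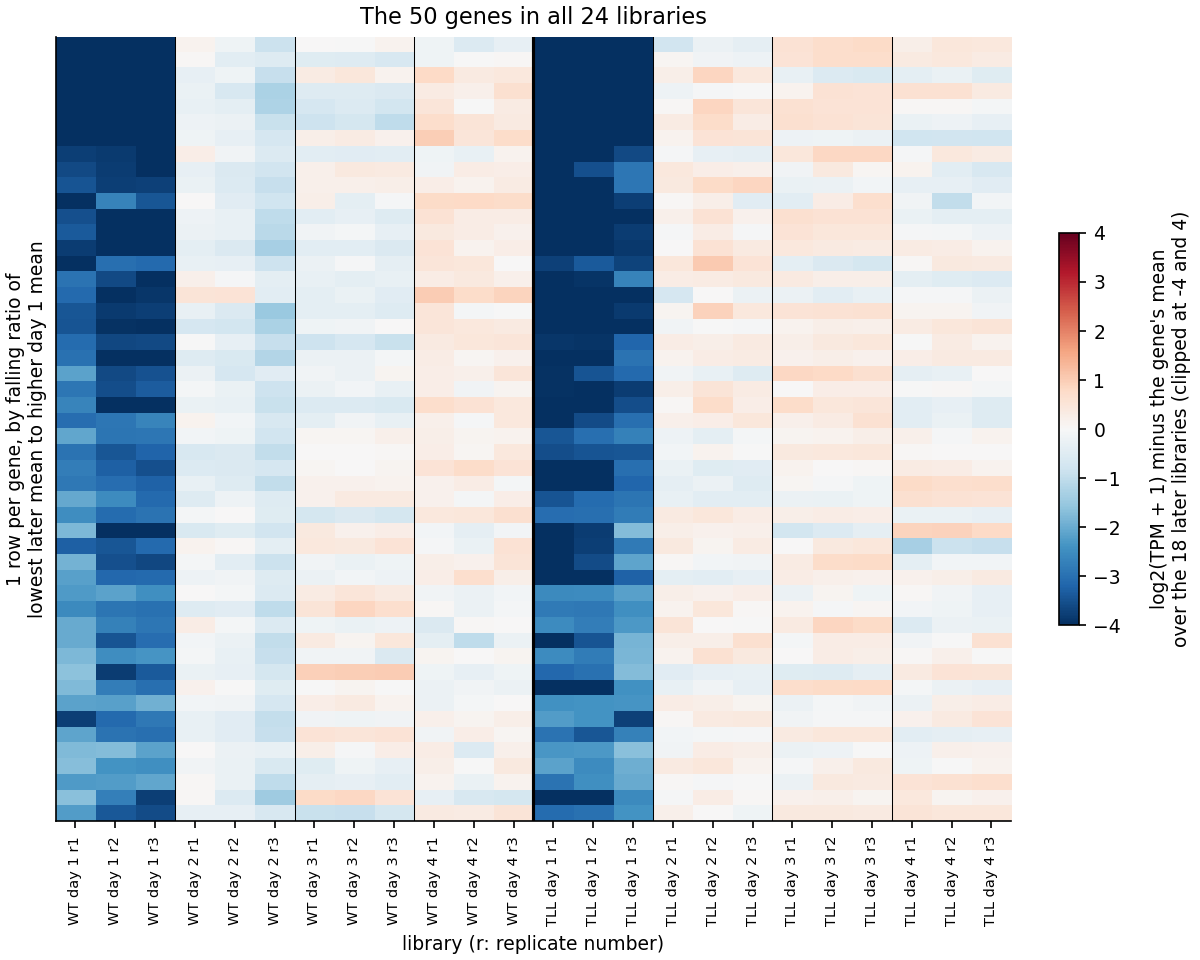
log2(TPM + 1) of each of the 50 genes (rows, by falling ratio of the lowest later mean to the higher day 1 mean) in all 24 libraries (columns), relative to the gene's mean over the 18 later libraries. Day 1 columns are dark blue (low), less so in many genes in WT replicate 1 and TLL replicate 3, and among the later libraries WT day 2 replicate 3 is light blue in most genes.

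The difference of the rise (mean of days 2 to 4 minus day 1, TLL minus WT) is computed from the group means that chose the genes, so it too is given as a description. The rule asks for a rise in both strains and does not use which is larger. The limma fit called this difference above 0 in 16 of the 50 genes and below 0 in 0. At an unadjusted p under 0.05 the counts were 25 and 0, where the shares of all genes were 20.1% and 5.80%. Of all 9558 genes tested, 8.54% were called larger and 2.08% smaller. The median difference over the 50 genes was 0.59 on the log2 scale, against 0.16 over all genes. Median-of-ratios scaling gave medians of 0.43 and -0.01 and 13 calls, all larger in TLL. Both rises rest on their strain's 3 day 1 libraries. The 16 calls became 10 without TLL day 1 replicate 1 or without replicate 2, and 28 without TLL day 1 replicate 3.

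NRRL3_01766 had the largest difference of the rise, at 2.23 (SE 0.32), which was 1.40 with a pseudocount of 5 TPM. Its WT libraries held 36.39, 18.11 and 20.94 TPM at day 1 and its TLL libraries 1.89, 2.25 and 4.94 TPM, without overlap. At the later days it averaged 393 ± 129, 253 ± 16.0 and 596 ± 58.2 TPM in WT and 269 ± 63.0, 260 ± 16.1 and 299 ± 21.4 TPM in TLL (SD, n = 3 each). The later means of TLL were thus below those of WT on days 2 and 4 and close to them at day 3, while the day 1 mean was 25.2 ± 9.84 TPM in WT and 3.03 ± 1.67 TPM in TLL (SD, n = 3). The difference in NRRL3_11436 was 2.20 (SE 0.34), and 1.26 with a pseudocount of 5 TPM. Leaving out any 1 of the 24 libraries kept both calls, in fits that also share 1 spread per gene over all groups. With the day 1 libraries alone, the day 1 strain difference was not called in NRRL3_01766 (limma adjusted p = 0.319) or NRRL3_11436 (limma adjusted p = 0.561).

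At day 1 the 50 genes were, where called, lower in TLL. Both day 1 means took part in the choice of the genes, which did not use which was lower, so these calls are a description. The limma fit called 9 lower and 0 higher, with 20 and 0 at an unadjusted p under 0.05, where the shares of all genes were 14.1% and 9.15%. Of all genes tested, 5.56% were called lower, 1.76% higher and 7.31% either way. The median strain difference was -0.30 on the log2 scale, and -0.02 over all genes. The libraries of the strains did not overlap in 6 of the 50 genes, each lower in TLL, against 7.64% of all genes lower, 4.97% higher and 12.6% either way. NRRL3_01766 had the largest change, -2.71 (SE 0.28, limma adjusted p = 5.38e-06), followed by NRRL3_11436 with -1.80 (SE 0.29, limma adjusted p = 0.00111), which was -0.86 with a pseudocount of 5 TPM. Both calls were kept without any 1 of the 6 day 1 libraries.

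The day 1 result depends on how the spread is estimated. When limma was fitted to just the 6 libraries of day 1, it called 0 of the 50 genes, with 6 at an unadjusted p under 0.05 (7.32% of all genes) and a smallest limma adjusted p among the 50 of 0.319. The fit on all libraries shares 1 spread per gene over groups whose day 1 replicates varied more, so its day 1 SE may be too small. Dropping 1 library changed the 9 calls to 5 (WT day 1 replicate 2), 3 (TLL day 1 replicate 1), 2 (TLL day 1 replicate 2) or 21 (TLL day 1 replicate 3). Dropping both libraries that lay apart gave 20 calls, of which 17 were lower and 3 higher, and dropping WT day 3 with TLL day 4 gave 3, each lower.

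At day 2 the 50 genes were, where called, higher in TLL. Both day 2 means took part in the choice of the genes, which kept their difference under 3-fold and did not use its sign. The limma fit called 15 higher and 0 lower, with 25 and 0 at an unadjusted p under 0.05, a threshold passed by 23.1% of all genes upward and 3.83% downward. After adjustment, 8.22% of all genes tested were called higher, 1.49% lower and 9.71% either way. The median difference was 0.58, and 0.19 over all genes. Groups did not overlap in 32 of the 50 genes, all higher in TLL, against 31.9% of all genes higher, 7.61% lower and 39.5% either way. After median-of-ratios scaling, which moved the median of all genes from 0.19 to 0.02, the median of the 50 was 0.38 and 8 were called, all higher in TLL. Quantile normalization called 9, also all higher.

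NRRL3_00982 and NRRL3_09517 had the largest differences at day 2. The libraries of NRRL3_00982 held 75.52, 60.89 and 32.4 TPM in WT and 100.03, 174.8 and 124.64 TPM in TLL (log2 change 1.27, SE 0.27, limma adjusted p = 0.0063). Those of NRRL3_09517 held 24.55, 20.24 and 15.23 TPM in WT and 39.07, 51.47 and 55.22 TPM in TLL (log2 change 1.25, SE 0.24, limma adjusted p = 0.00314). The strains did not overlap in either gene, with TLL higher and WT replicate 3 the lowest. The call of NRRL3_00982 was lost without WT day 2 replicate 3 or TLL day 2 replicate 2.

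WT day 2 replicate 3, the lowest of its group in 48 of the 50 genes, moved with this result. Without it 4 of the 50 genes were called, and 4 without TLL day 2 replicate 2 and 8 without TLL day 2 replicate 3. The 15 calls became 24 without WT day 1 replicate 1, 32 without both day 1 libraries that lay apart, and 8 without WT day 3 and TLL day 4 in the fit. All called genes were higher in TLL in each of these last 2 fits.

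**Figure D4:**
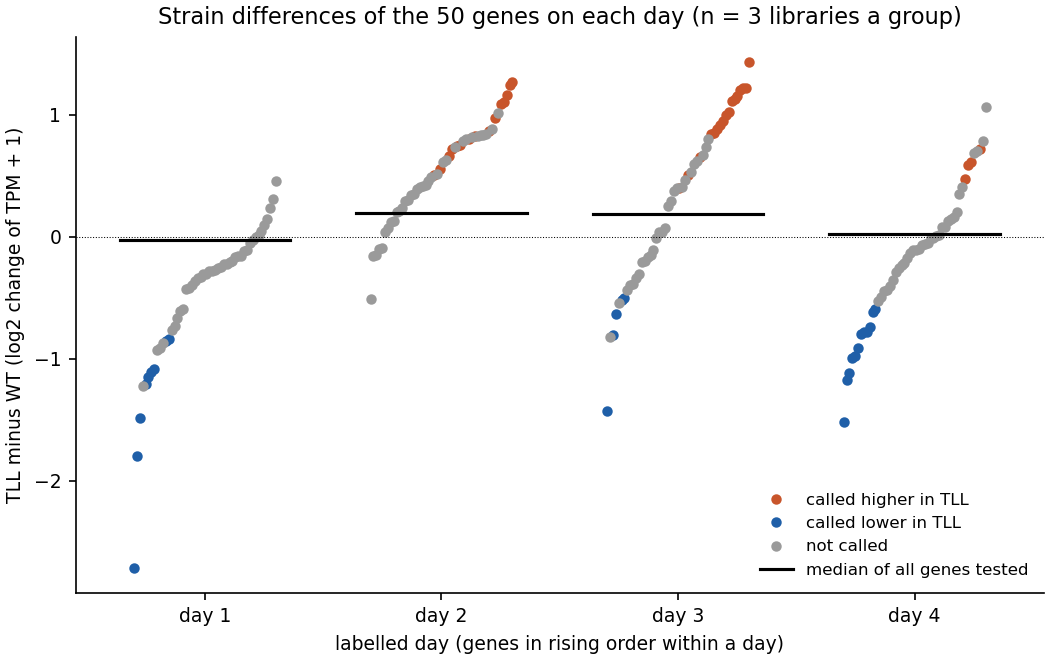
Strain difference (TLL minus WT, log2 change of TPM + 1, 3 libraries a group) of each of the 50 genes on each day, in rising order within a day and coloured by the limma call, with the median of all 9558 genes as a bar. The called genes lie below 0 at day 1 (9 of 50), above 0 at day 2 (15) and on both sides at day 3 (17 higher, 5 lower) and day 4 (4 higher, 12 lower).

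At days 3 and 4 the choice of the genes kept strain differences under 3-fold. The share of the 50 that limma called either way was 44% at day 3 and 32% at day 4, below that of all genes. The share without overlap was 84% at day 3, above that of all genes, and 56% at day 4, below it. Fitted on the compared libraries alone, limma called 39 of the 50 at day 3 and 26 at day 4. The shares of all genes in those fits were not computed, so nothing is read from these counts. At day 3 limma called 17 of the 50 genes higher and 5 lower in TLL, where 32.2% of all genes were called higher, 14.9% lower and 47.1% either way. At day 4 it called 4 higher and 12 lower, where the shares of all genes were 27.3%, 26.8% and 54.1%. The libraries did not overlap in 29 genes higher and 13 lower at day 3, where the shares of all genes were 44.0%, 25.0% and 69.0% either way, and in 9 higher and 19 lower at day 4, where they were 34.5%, 33.6% and 68.1%. The median of the 50 was 0.40 at day 3 and -0.11 at day 4, and that of all genes 0.19 and 0.03. With median-of-ratios scaling the split was 14 higher to 8 lower at day 3 and 2 to 13 at day 4, and with quantile normalization it was 14 to 9 at day 3.

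Without TLL day 3 replicate 1 the genes called lower at day 3 went from 5 to 3. NRRL3_01914 had the largest difference upward at day 3. Its libraries held 213.83, 231.86 and 185.13 TPM in WT and 596.79, 563.87 and 543.04 TPM in TLL (log2 change 1.43, SE 0.28, limma adjusted p = 0.000308). The groups lay far apart, and at day 4 the order was the other way, with 618.83, 542.82 and 487.08 TPM in WT and 316.79, 332.51 and 303.54 TPM in TLL. NRRL3_01545 stood at 597 ± 42.4 TPM in WT and 1392 ± 29.9 TPM in TLL (SD, n = 3; log2 change 1.22, SE 0.29, limma adjusted p = 0.00188). NRRL3_00131 had the largest difference downward at day 3, with 104.01, 106.67 and 107.68 TPM in WT and 37.84, 37.08 and 41.63 TPM in TLL (log2 change -1.43, SE 0.38, limma adjusted p = 0.0039). Among the called genes NRRL3_01774 followed with 73.7 ± 7.81 TPM in WT and 41.7 ± 5.00 TPM in TLL (SD, n = 3; log2 change -0.81, SE 0.21, limma adjusted p = 0.00408). These 4 calls were kept without any 1 of the 6 compared libraries.

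At day 4 NRRL3_02339 differed most. Its libraries held 277.42, 199.29 and 232.87 TPM in WT and 81.4, 81.77 and 81.03 TPM in TLL (log2 change -1.51, SE 0.38, limma adjusted p = 0.00223). It was the gene of the 50 whose later means lay farthest apart, and the call was kept without any 1 of the 6 libraries. NRRL3_03009 averaged 52.2 ± 0.683 TPM in WT and 23.4 ± 7.47 TPM in TLL (SD, n = 3; log2 change -1.18, SE 0.41, limma adjusted p = 0.02), a call lost without TLL replicate 2, which held 14.78 TPM, and with a pseudocount of 0.1 TPM (limma adjusted p = 0.213). Over all its alternatives the limma adjusted p of this gene stayed at or below that value.

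Of the genes called higher at day 4, the named ones changed little. NRRL3_11436 differed by 0.72 (SE 0.29, limma adjusted p = 0.0432), a call lost without any 1 of the 6 compared libraries. NRRL3_03592 averaged 23.7 ± 3.72 TPM in WT and 36.4 ± 1.61 TPM in TLL (SD, n = 3; log2 change 0.61, SE 0.24, limma adjusted p = 0.0345). Its call was lost without WT replicate 2 or without any 1 of the 3 TLL libraries. The 16 calls of day 4 became 7 without WT day 4 replicate 1, 8 without WT replicate 2, and 6, 8 and 6 without TLL replicates 1, 2 and 3. The count of genes called higher went from 4 to 0 without any 1 of these TLL libraries, and to 1 without WT day 4 replicate 1 or 2 or with a pseudocount of 0.1 TPM. It was 2 without WT day 4 replicate 3, WT day 3 replicate 1 or 2, or TLL day 3 replicate 2 or 3. The genes called lower went from 12 to between 6 and 8 without any 1 of the 6 day 4 libraries other than WT replicate 3.

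By the limma interaction test, the strain difference changed between the groups labelled day 3 and day 4 in 25 of the 50 genes. This was a smaller share than the 58.5% of all genes. The choice of the genes held these group means within 3-fold, which limits the size of the change, so it is a description. The interaction rests on the labels of these 4 groups. Of them, WT day 3 resembled TLL day 4 and WT day 4 resembled TLL day 3, as given above. The strain difference moved down in 20 genes and up in 5, where 33.4% of all genes were called down and 25.1% up. Leaving out 1 library gave 14 to 25 genes down and 2 to 8 up. The median of the 50 was -0.58 on the log2 scale and that of all genes -0.14. Quantile normalization called 12 down and 8 up. Fitted on the compared libraries alone, limma called 40 of the 50, with 31 down and 9 up. The shares of all genes in that fit were not computed. By the sign of the group means alone, 23 of the 50 were higher in TLL at day 3 and lower at day 4, 9 went the other way, 9 stayed above 0 and 9 stayed below 0, where the shares of all genes were 36.1%, 26.7%, 24.6% and 12.3%. Of the genes called on both days, 5 went from higher to lower, 1 from lower to higher and 1 was lower on both, where the shares of all genes were 16.3%, 7.01% and 1.83%. Of the 50 genes, 0 were below 0 on all of days 2 to 4, and 7 were above 0 on all of them. The shares of all genes were not computed for these counts, so nothing is read from them.

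Among the called genes NRRL3_01914 had the largest move down, -2.22 (SE 0.40, limma adjusted p = 8.16e-05). NRRL3_05270 moved by -2.09 (SE 0.50, limma adjusted p = 0.00126): at day 3 it held 343.56, 341.53 and 326.39 TPM in WT and 823.91, 686.72 and 694.78 TPM in TLL, and at day 4 it held 803.86, 737.07 and 667.16 TPM in WT and 372.45, 396.7 and 351.53 TPM in TLL. The strains did not overlap on either day. WT day 3 lay near TLL day 4 and WT day 4 near TLL day 3, so this reversal of order depends on the day labels of these groups. NRRL3_00131 had the largest move up, 2.12 (SE 0.53, limma adjusted p = 0.00201), and at day 4 held 47.63, 42.44 and 47.51 TPM in WT and 68.31, 79.12 and 76.67 TPM in TLL. NRRL3_01451 moved by 1.88 (SE 0.76, limma adjusted p = 0.0398), a call lost without any 1 of 11 of the 12 compared libraries and kept without TLL day 3 replicate 3.

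**Figure D5:**
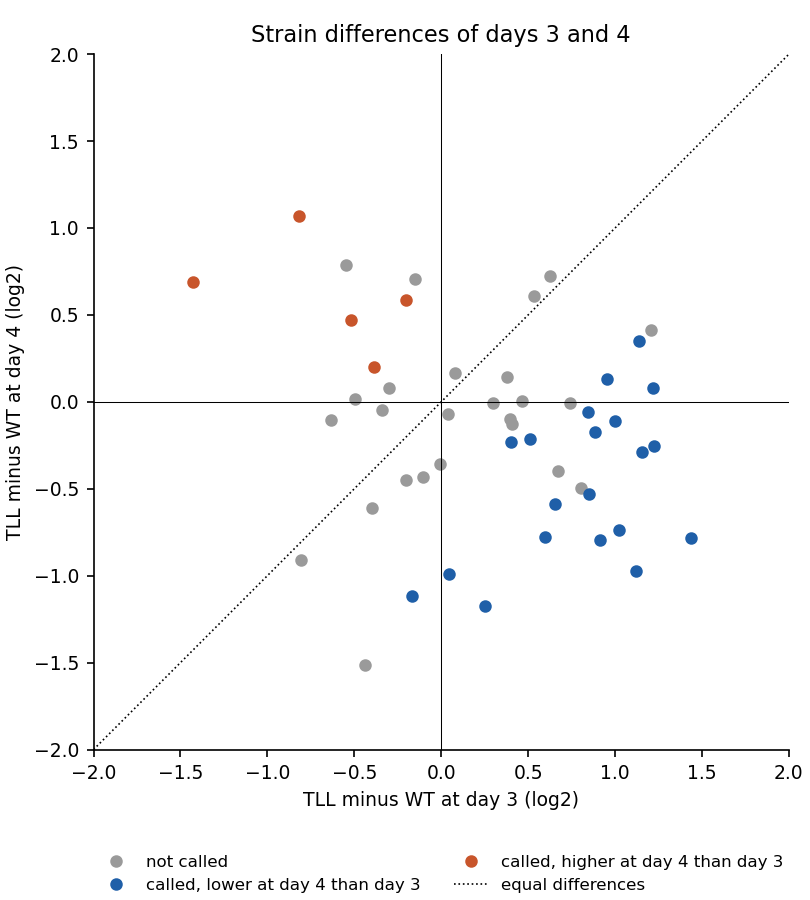
Strain difference (TLL minus WT, log2 change of TPM + 1) at day 4 against that at day 3 for each of the 50 genes, coloured by the limma call of the interaction, with a dotted line where both are equal. Of the 25 called genes, 20 lie below the line and 5 above it.

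The steps between later days were tested within each strain, and the difference between the strains was tested for the step from day 3 to day 4 alone, as the interaction above. From day 2 to day 3 in WT limma called 13 of the 50 genes higher and 1 lower, where 20.2% of all genes were called higher and 33.5% lower. The libraries did not overlap in 22 genes higher and 2 lower, against 28.3%, 42.2% and 70.4% either way of all genes. Without WT day 2 replicate 3 the limma calls were 8 higher and 3 lower. The median step of the 50 was 0.35 on the log2 scale, and that of all genes -0.17. NRRL3_00131 rose to 106 ± 1.90 TPM from 39.6 ± 6.54 TPM (SD, n = 3; log2 change 1.41, SE 0.38, limma adjusted p = 0.0037). NRRL3_11438 rose to 113 ± 11.7 TPM from 47.5 ± 22.8 TPM (SD, n = 3; log2 change 1.34, SE 0.48, limma adjusted p = 0.0237), a call lost without WT day 2 replicate 3 or WT day 3 replicate 1 or 2. The gene that fell was NRRL3_08864, to 16.6 ± 0.800 TPM from 23.4 ± 4.20 TPM (SD, n = 3; log2 change -0.46, SE 0.15, limma adjusted p = 0.0129). Its call was lost without WT day 2 replicate 1 or 2, and with median-of-ratios scaling (-0.28, limma adjusted p = 0.116) or quantile normalization (-0.32, limma adjusted p = 0.052), and its limma adjusted p ranged up to 0.116 over all alternatives.

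From day 3 to day 4 in WT 12 of the 50 genes were called higher and 4 lower by limma, where 32.9% of all genes were called higher and 20.4% lower. Both median-of-ratios scaling and quantile normalization gave 10 higher and 8 lower. NRRL3_01914 rose by 1.38 (SE 0.28, limma adjusted p = 0.00036). NRRL3_06628 rose to 156 ± 10.9 TPM from 65.2 ± 5.26 TPM (SD, n = 3; log2 change 1.25, SE 0.24, limma adjusted p = 0.000225). NRRL3_00131 went the other way and fell back to 45.9 ± 2.96 TPM (SD, n = 3; log2 change -1.19, SE 0.38, limma adjusted p = 0.0114). NRRL3_11438 also fell back, to 46.7 ± 7.27 TPM (SD, n = 3; log2 change -1.26, SE 0.48, limma adjusted p = 0.0326), a call kept without WT day 4 replicate 1 and lost without any 1 of the other 5 libraries.

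In TLL the step from day 2 to day 3 was called in 7 of the 50 genes by limma, 4 higher and 3 lower, where 4.69% of all genes were called higher and 13.2% lower. The split was 9 higher and 3 lower with median-of-ratios scaling and 8 and 3 with quantile normalization, and 11 genes were called without TLL day 1 replicate 3. NRRL3_11436 rose by 1.14 (SE 0.29, limma adjusted p = 0.00976). NRRL3_08286 rose to 35.9 ± 2.45 TPM from 16.5 ± 2.25 TPM (SD, n = 3; log2 change 1.09, SE 0.28, limma adjusted p = 0.00915), a call lost with a pseudocount of 0.1 TPM (limma adjusted p = 0.0688, the highest over its alternatives). NRRL3_01073 fell to 16.6 ± 1.97 TPM from 41.3 ± 10.1 TPM (SD, n = 3; log2 change -1.24, SE 0.25, limma adjusted p = 0.00169), and NRRL3_01774 fell to 41.7 ± 5.00 TPM from 84.8 ± 19.3 TPM (SD, n = 3; log2 change -0.99, SE 0.21, limma adjusted p = 0.00277).

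From day 3 to day 4 in TLL 5 genes were called higher and 11 lower, where 21.7% of all genes were called higher and 25.7% lower. The higher calls went from 5 to 3 without TLL day 3 replicate 1, 2 or 3 or TLL day 4 replicate 2 or 3. NRRL3_01244 fell to 26.9 ± 4.53 TPM from 69.0 ± 10.9 TPM (SD, n = 3; log2 change -1.33, SE 0.25, limma adjusted p = 0.000231). NRRL3_06874 fell to 49.7 ± 5.93 TPM from 102 ± 18.2 TPM (SD, n = 3; log2 change -1.01, SE 0.24, limma adjusted p = 0.00203). Both stood lower in TLL day 4 than in any other later group. NRRL3_01451 rose by 1.42 (SE 0.54, limma adjusted p = 0.036) and NRRL3_00131 by 0.92 (SE 0.38, limma adjusted p = 0.0492), and both calls were lost without any 1 of the 6 compared libraries. In all 4 of these steps, the share of the 50 genes called either way by the limma fit on all libraries (28%, 32%, 14% and 32%) was below that of all genes (53.6%, 53.4%, 17.9% and 47.4%). The libraries did not overlap in 48%, 80%, 54% and 68% of the 50, against 70.4%, 68.3%, 44.9% and 69.1% of all genes. Fitted on the compared libraries alone, limma called 22, 37, 18 and 27 of the 50, and the shares of all genes in those fits were not computed. The choice of the genes limits the size of these steps.

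The 50 genes did not share 1 pattern among the later groups. Over the 1225 pairs of these genes, the median Pearson correlation of the 6 later group means was 0.33, and 23.8% of the pairs lay below 0. By the highest of the 6 later means, 15 genes peaked in TLL day 3, 11 in WT day 4, 9 in WT day 3, 8 in TLL day 4 and 7 in TLL day 2. Neither the correlations nor these counts were computed for all genes, and the choice of the genes limits the spread of their later means. In the ID order, 10 of the 50 genes (20%) had another of the 50 within 5 ID numbers, against 3.80% of the other genes, and 4 (8%) had one at the next number, against 0.805%. The files give no positions, so the distance between these genes is unknown. The neighbours in ID order were NRRL3_04582 with NRRL3_04583, and NRRL3_08286 with NRRL3_08287. Their later means correlated at -0.13 and -0.32 over 6 groups, and their levels differed, with means over all libraries of 17.5 and 778 TPM in the first pair and 16.8 and 9.19 TPM in the second. NRRL3_11436 and NRRL3_11438 are 2 ID numbers apart, and their later means correlated at 0.47 over 6 groups. Between them lies NRRL3_11437, which averaged 1.03 TPM (WT) and 0.407 TPM (TLL) at day 1. In the later groups NRRL3_11437 averaged 3.75 to 6.80 TPM, under the minimum of 10 TPM.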

How the data were processed

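The authors deposited 1 table of TPM values per gene for 24 libraries. Per the submitters' processing notes HISAT2, StringTie and Cufflinks were used, with no roles or versions; the name of the table refers to RSEM, and no source used here gives a genome build or annotation. All columns were matched to samples by library name, and 0 columns belonged to no sample.

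TPM were transformed to log2(TPM + 1), which understates changes of low genes. A mean per group (8 groups, 16 residual degrees of freedom) was fitted with limma 3.58.1 (R 4.3.3), using moderated variances (eBayes with trend), to the 9558 genes that reached 1 TPM in 3 or more libraries. Tests were two-sided, p-values were Benjamini-Hochberg adjusted over all genes tested, and genes under 0.05 were called. The fit was tested on simulated data. Figures used matplotlib 3.10.9 in Python 3.11.15.

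The 50 genes, the comparisons and the alternatives were chosen with earlier results of these data known. Named genes are the 2 largest changes each way among called genes whose libraries do not overlap; for the interaction of days 3 and 4 overlap was judged on both days, and for the difference of the rise it was not used. For the rise they are the 2 largest ratios and the genes nearest the limits. The most abundant gene and its 2 closest profiles are also named, and ID neighbours were named after their values were seen. A set of 12 gene lists written on product names could not be counted, since no ID matched an annotation.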

Additional observations from a re-analysis of the deposited data

Results flagged for a closer look

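Between the groups labelled day 3 and day 4, the change of the strain difference was tested as an interaction. It was called in 25 of the 50 genes by limma, with NRRL3_01914 at -2.22, NRRL3_05270 at -2.09, NRRL3_00131 at 2.12 and NRRL3_01451 at 1.88 on the log2 scale. That share of the 50 lies below the 58.5% of all genes called. The choice of the genes held these group means within 3-fold, which limits the size of this change. Fitted on the compared libraries alone, limma called 40 of the 50, and the share of all genes in that fit was not computed. The result rests on the day labels as given, where WT day 3 resembled TLL day 4 (r = 0.910) and WT day 4 resembled TLL day 3 (r = 0.971) more than the groups of the same day resembled each other.

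The difference of the rise between the strains was called in 16 of the 50 genes by limma. It is computed from the group means that chose the genes, so it is a description. NRRL3_01766 stood at 2.23 and NRRL3_11436 at 2.20 on the log2 scale. Here 10.6% of all genes were called either way. Leaving out 1 library gave 10 to 28 calls, both ends without a TLL day 1 library, and leaving out both day 1 libraries that lay apart gave 27.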

How the results depend on the processing

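The limits of the rule set how many genes it finds: 79 at a 3-fold rise, 14 with later means within 2-fold, 105 with WT alone and 239 with TLL alone. Median-of-ratios scaling gave 47 genes, of which 40 were shared, and leaving out 1 library gave 43 to 57. In the order of the 4 strain differences by day, their change from day 3 to 4, the 4 day steps (WT, then TLL) and the difference of the rise, the reported fit called 9, 15, 22, 16, 25, 14, 16, 7, 16 and 16 of the 50 genes. Library weights, whose estimation did not converge, called 35, 36, 41, 31, 39, 30, 41, 24, 34 and 35. The compared libraries alone called 0 at day 1, 39 at day 3, 26 at day 4, 40 for the change from day 3 to 4, and 22, 37, 18 and 27 for the steps. Apart from day 1, the shares of all genes in these fits were not computed. Without both day 1 libraries that lay apart, an alternative chosen after seeing the data, 20, 32, 36 and 26 were called for the 4 days, 27, 33 and 17 for the first 3 steps and 27 for the rise. Without WT day 3 and TLL day 4, also chosen after seeing the data, 3 were called at day 1 and 8 at day 2. A pseudocount of 0.1 TPM gave 9 at day 2 and 10 at day 4. Median-of-ratios scaling gave 8 at day 2 and 12 for the TLL step from day 2 to 3, and quantile normalization 9 and 11. The cause of these changes was not tested. Leaving out 1 library gave 2 to 21 calls at day 1, 4 to 24 at day 2, 6 to 20 at day 4, 5 to 11 for the TLL step from day 2 to 3 and 10 to 28 for the difference of the rise, and in total stayed within 1.5 times the reported count for the other 5, of which some counts in 1 direction moved by more. Pairing by replicate number was not borne out: same-numbered deviations of both strains correlated between -0.64 and 0.44. The replicate block called 9, 12, 21, 14, 24, 14, 16, 7, 14 and 16. Of 598 recomputed values of named genes, 534 kept direction and call, 64 lost the call and 0 changed direction.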
